A study of Drosophila melanogaster with 8 samples.

Results

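RNA of sperm was compared between adult male Drosophila melanogaster that ate food with 300 g/L sugar (high) and males that ate food with 30 g/L sugar (medium). All males were of w1118, a white-eyed laboratory strain, and the labels give spermatozoa as the tissue. Total RNA was extracted with Trizol, treated to remove ribosomal RNA, and stranded libraries were prepared, 2 per group. The wider study also sequenced stage 17 embryos sired by such males, the last stage before hatching, again with 2 libraries per group and 8 in all. Of the 15146 genes of the sperm table, the 9251 whose 2 group values averaged 1 FPKM or more were taken. FPKM is the number of fragments for each kilobase of a transcript, put on a common scale of sequencing depth, and the table gives every gene 1 value per group. Values of single libraries were not used, and differences are therefore given without a replicate spread. Ratios are log2((high + 0.1) / (medium + 0.1)) throughout, where 1 is a 2-fold higher and -1 a 2-fold lower value in the high sugar group.

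Fly sperm are made in the testis from germline stem cells by way of spermatogonia, spermatocytes and spermatids. Most spermatid genes are transcribed in spermatocytes and their RNAs are stored until the nucleus condenses and the tail grows, and a small class, the comet and cup genes, is transcribed after meiosis. Sperm then pass the seminal vesicle and are mixed with seminal proteins of the accessory gland, the ejaculatory duct and the ejaculatory bulb, whose walls carry muscle.

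Markers of the labelled cells and of other cells were both found. All 6 spermatid markers reached 1 FPKM in each group, and their FPKM summed to 416 in the medium and 986 in the high sugar group. All 4 muscle markers did so too, with sums of 1924 and 1842. Of the 4 spermatocyte markers, sa alone reached 1 FPKM in both groups, and the sums were 4.54 and 6.84. All 4 accessory gland markers (sums of 47.2 and 81.8) and 3 of 4 duct and bulb markers (570 and 1086) reached it. For the fat body 2 of 4 did (501 and 175), which were Tsf1 (429 and 107) and apolpp (70.4 and 67.4). For haemocytes 2 of 4 reached it (30.6 and 29.2), for neurons 2 of 4 (18.2 and 22.3), for glia 2 of 3 (30.1 and 30.5), for photoreceptors 1 of 4 (14.8 and 14.3) and for the gut 1 of 4 (35.2 and 37.2). No egg chamber marker did (0 and 0.883). The photoreceptor opsin ninaE, the gut protease Jon99Ci and the eggshell genes Vm26Aa and Cp36 were listed at 0 in both groups. The gland marker Acp36DE shares its locus with another gene, so its values are less certain. The libraries labelled as spermatozoa therefore held RNA of spermatids or sperm together with muscle and gland RNA, and the part of this mixture in the differences below was not tested. In such bulk RNA, fewer cells of a type and less RNA per cell cannot be told apart.

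Across the table most genes had similar values in both groups. Among the 3722 genes with a mean of at least 10 FPKM, 90.8% lay within 2-fold, with a median log2 ratio of -0.08. Over all 9251 genes the median was -0.03, the quartiles were -0.35 and 0.46, and the outer percentiles were -1.25 (percentile 5) and 2.04 (percentile 95). The upper side was the wider one. In all, 1270 genes (13.7%) were 2-fold or more higher in the high sugar group and 703 (7.6%) were 2-fold or more lower. Of protein-coding genes, 171 were listed at 0 in the medium group and 59 in the high group. The authors tested 6453 genes. Of these, 21 (0.325%) rose and 1 (0.0155%) fell at an adjusted p below 0.05 in the authors' deposited table, and at an unadjusted p under 0.05 the counts were 209 higher (3.24%) and 46 lower (0.713%). Low values scattered more. Of protein-coding genes with a mean of 1 to 2 FPKM, 30.0% were 2-fold higher and 18.7% were 2-fold lower, against 4.21% and 0.263% of those at 100 FPKM or more.

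**Figure D1:**
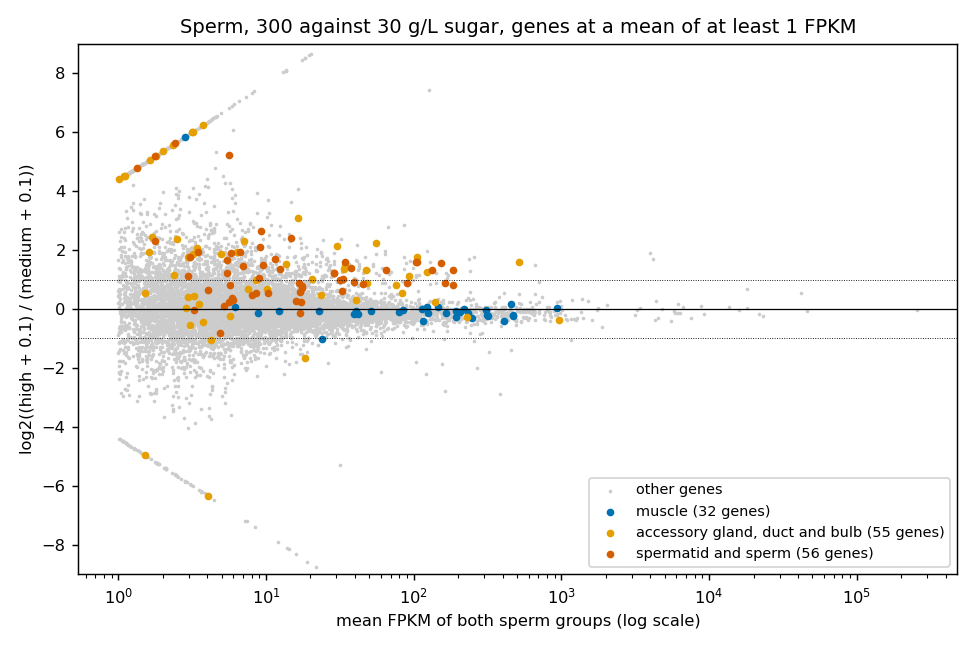
Log2 ratio of each gene (y axis) against its mean FPKM in both sperm groups (x axis, log scale), with muscle genes in blue, accessory gland, duct and bulb genes in orange and spermatid and sperm genes in red. The dotted lines mark a 2-fold difference, the straight outer arms are genes listed at 0 in 1 group, and 26 genes lie outside the axis. Muscle genes cluster near 0 (median -0.10), while most spermatid and sperm genes and most gland, duct and bulb genes lie above 0.

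Of the 22 called genes, 21 rose and 1 fell. The leucyl aminopeptidases S-Lap1 (77.4 and 229 FPKM in the medium and high groups) and S-Lap7 (52.6 and 158 FPKM) and their relative loopin-1 (51.6 and 155 FPKM) rose. They belong to a protein family of the mitochondrial derivatives of the sperm tail. Dup99B, a peptide of the ejaculatory duct related to the sex peptide, rose from 254 to 778 FPKM. Its gene lies on 3R from 25540790 to 25541099 in the BDGP5 build. CG43343, now named Gpdh3, a testis copy of glycerol-3-phosphate dehydrogenase, rose from 14.0 to 43.5 FPKM. Pen, an importin alpha that carries proteins into the nucleus, rose from 23.5 to 62.0 FPKM. Tsf1, the iron-binding transferrin of the haemolymph, fell from 429 to 107 FPKM. The called genes without a given name were CG4691 (39.4 and 133 FPKM), CG4836 (64.3 and 195 FPKM), CG5089 (41.5 and 99.9 FPKM), CG33340 (23.9 and 87.4 FPKM), CG3213 (14.7 and 42.7 FPKM), CG5402 (20.8 and 152 FPKM), CG15086 (7.03 and 23.9 FPKM) and CG32436 (9.76 and 26.6 FPKM). All 8 of these rose.

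A further 5 called genes were listed at 0 in the medium group, so no fold is given for them. They were the cecropin gene CecA2 at 39.0 FPKM, CG31198 at 9.97 FPKM, CG10560 at 7.96 FPKM, CG11634 at 6.57 FPKM and the cytochrome P450 gene Cyp6a18 at 6.15 FPKM in the high group. The last 2 called genes matched ribosomal RNA or had no match. CR40677, annotated as a 2S ribosomal RNA pseudogene, had 1681 and 6313 FPKM, and CR41583, which carries no current name, had 1966 and 6375 FPKM. Other ribosomal RNA genes went different ways. The 28S pseudogene CR41609 had 23010 and 20519 FPKM and the 18S pseudogene CR41602 had 6432 and 5910 FPKM, while 2 of the 5 genes annotated as ribosomal RNA, both of 5S RNA, had 37.97 and 24.1 FPKM in the medium group and were listed at 0 in the high group. These libraries had been depleted of ribosomal RNA, and no value here shows whether depletion moved with the groups. Among the 16 genes that rose from a value above 0, the ratio of high over medium ran from 2.41 to 7.30 with a median of 3.05. In stage 17 embryos 17 of the 22 had a mean under 1 FPKM, beside 1542 of all 9251 genes. A mean under 0.1 FPKM was found for 8 of the 22, beside 657 of the 8490 protein-coding genes. In the authors' deposited table the adjusted p equalled 0.00749 for 16 of the 22 and 0.0262 to 0.0424 for CG32436, Dup99B, CG5089, Pen, CG5402 and CG3213. Recomputed from the deposited p-values over the tested genes, the 16 kept an adjusted p of 0.0202, while these 6 lay between 0.0759 and 0.103. Of the called genes, 6 share their locus with another gene, S-Lap7 and CG43343 among them, and their values are less certain.

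**Figure D2:**
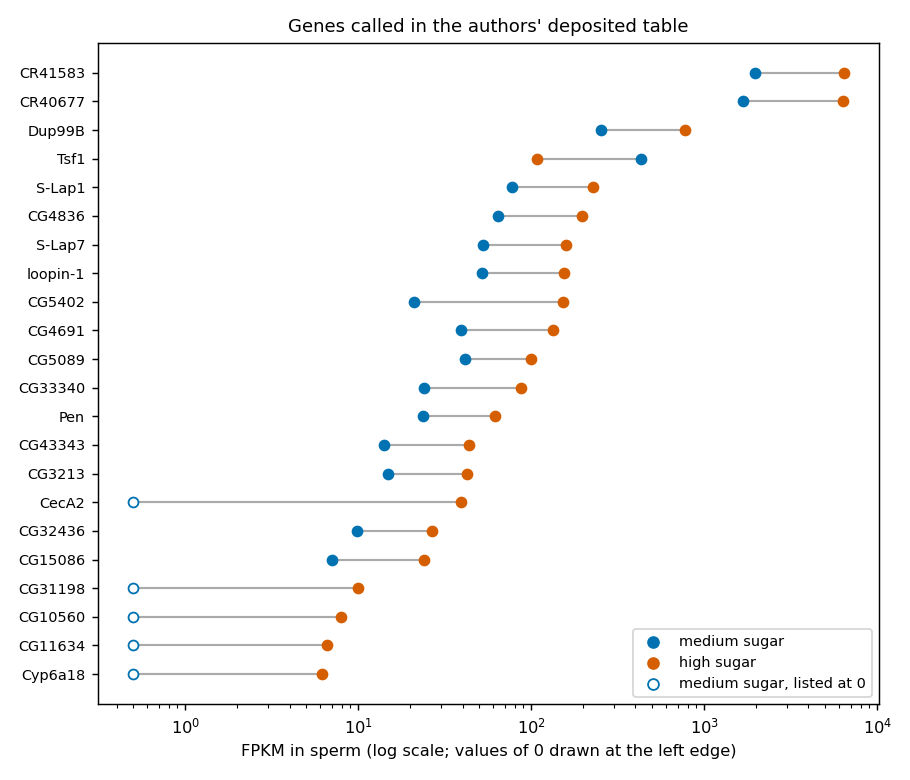
FPKM of the 22 called genes in sperm of medium (blue) and high sugar males (red) on a log axis, with open circles at the left edge for genes listed at 0 in the medium group. All but Tsf1 have the higher value in the high sugar group.

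The testis genes were then followed in the order of sperm development. Genes of the early germline and of entry into meiosis had similar values in both groups. Of 17 found, 8 reached 1 FPKM, with a median log2 ratio of 0.09 (-0.01 over the 6 at 1 FPKM in both groups) and none past 2-fold. The RNA-binding proteins Rbp9 (37.4 and 36.7 FPKM) and mei-P26 (6.97 and 6.86 FPKM, a regulator of germ cell differentiation) and the meiotic regulator bol (22.6 and 25.8 FPKM) were the most abundant of them together with Ote (7.22 and 5.43 FPKM), a protein of the nuclear lamina. The stem cell and spermatogonial genes vas, nos, aub, zpg and bam lay under 1 FPKM in both groups. The spermatocyte regulators, which switch on the program of meiosis and sperm formation, were also rare. Of 13 found, 4 reached 1 FPKM, none of them tested, and the most abundant was sa, a testis TAF, at 3.58 and 4.09 FPKM. It was followed by mip40 (2.16 and 3.27 FPKM), achi (1.50 and 1.27 FPKM) and mia (1.75 and 0.924 FPKM). The 4 ratios ran from -0.85 to 0.57. Of the 9 below a mean of 1 FPKM, 6 (can, CG30401, comr, CG5204, vis and aly) were listed at 0 in the medium group with 0.192 to 0.890 FPKM in the high group, and 2 were listed at 0 in both. With a minimum mean of 0.1 FPKM the median of this list was 1.12 in place of -0.02, so it depends on the minimum. The early members were also expressed in embryos, bol at 75.4 FPKM for example. Of the 8 early germline genes and the 4 spermatocyte regulators at 1 FPKM, 0 had an embryo mean under 1 FPKM. Among the 36 late spermatid genes described below, 26 did, beside 1542 of all 9251 genes. The lists therefore differ in embryo expression as well as in stage, and the part of either in their ratios was not tested.

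Later stages had higher values in the high sugar group. All 11 genes of nuclear packaging proteins, which replace histones in the spermatid nucleus, reached a mean of 1 FPKM and had ratios above 0, with a median of 0.81 (0.73 over the 10 at 1 FPKM in both groups). Mst77F, a linker-histone-like protein of sperm chromatin, had 20.6 and 54.4 FPKM, but shares its locus with another gene, so its values are less certain. The protamine genes Mst35Ba and Mst35Bb had 3.13 and 4.93 FPKM and 2.69 and 10.7 FPKM. None of the 9 tested members was called, and 1 had an unadjusted p under 0.05 in the authors' deposited table, beside 3.24% of all tested genes higher. The transition protein gene Tpl94D was listed at 0 in the medium group with 3.56 FPKM in the high group.

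Late spermatid genes of the cytoplasm and tail differed by more. Of 40 found, 36 reached a mean of 1 FPKM, and 35 of these had ratios above 0, with 22 past 2-fold higher and 0 past 2-fold lower. The share higher was 61.1%, beside 13.7% of all genes. Of the 22, 4 had under 1 FPKM in the medium group and so reached the mean through the high group alone. Over the 32 at 1 FPKM in both groups, 18 were 2-fold higher (56.25%, beside 9.02% of all genes at that level). The median was 1.22 (1.09 over these 32), beside -0.03 for all genes. The most abundant were the male-specific transcripts Mst87F (106 and 264 FPKM), Mst84Db (133 and 236 FPKM) and Mst84Dc (114 and 213 FPKM), which encode small structural proteins of the sperm tail, and ocn (76.3 and 189 FPKM), a testis protein of the janus family. None of the 30 tested members was called, and 6 had an unadjusted p under 0.05 in the authors' deposited table, all 6 higher. Among all tested genes 3.24% were higher at that p. The comet and cup genes were part of this list and mostly had low values. The comet genes schuy (5.40 and 17.7 FPKM) and whip (4.59 and 25.05 FPKM) had larger ratios than soti (5.08 and 6.67 FPKM) or m-cup (7.02 and 10.2 FPKM). However, schuy and whip share their locus with other genes, so their values are less certain, while soti and m-cup do not. Other members past 2-fold higher that share a locus were swif, hubl, cola, Mst84Da, janB, h-cup, c-cup and Mst89B. Of these, swif, hubl and cola are listed at the same locus as whip, yet were counted as separate members. The testis tubulin betaTub85D, which builds the axoneme, had 25.8 and 39.2 FPKM. CG31907 was the 1 member with a ratio below 0, at 6.24 and 3.53 FPKM.

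The leucyl aminopeptidases of sperm did not all move together. All 9 genes found reached 1 FPKM in both groups, and the median ratio was 1.00. Beside the 3 called genes, S-Lap4 (37.2 and 92.5 FPKM), S-Lap3 (32.3 and 58.0 FPKM), S-Lap2 (27.3 and 51.9 FPKM) and S-Lap8 (20.9 and 42.0 FPKM) had higher values in the high sugar group with an unadjusted p under 0.05 in the authors' deposited table. The others, S-Lap5 (3.32 and 3.21 FPKM) and granny-smith (17.8 and 16.0 FPKM), had nearly equal values. In embryos granny-smith had 12.0 FPKM, while S-Lap5 had 0.0133 FPKM. Axonemal dynein and Y-linked fertility genes power and build the tail, and several of them are very long. Most were near the limit of detection. Of 21 found, 4 reached a mean of 1 FPKM and 7 were listed at 0 in both groups. The fertility genes kl-3 (0.648 and 0.788 FPKM) and kl-5 (0.275 and 0.886 FPKM) were among those below that mean. Genes of the somatic cells of the testis, which enclose the germ cells, did not follow the spermatid genes. Of 9 found, 5 reached 1 FPKM, with a median ratio of -0.39, and the adhesion protein Fas3 had 31.0 and 23.6 FPKM.

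**Figure D3:**
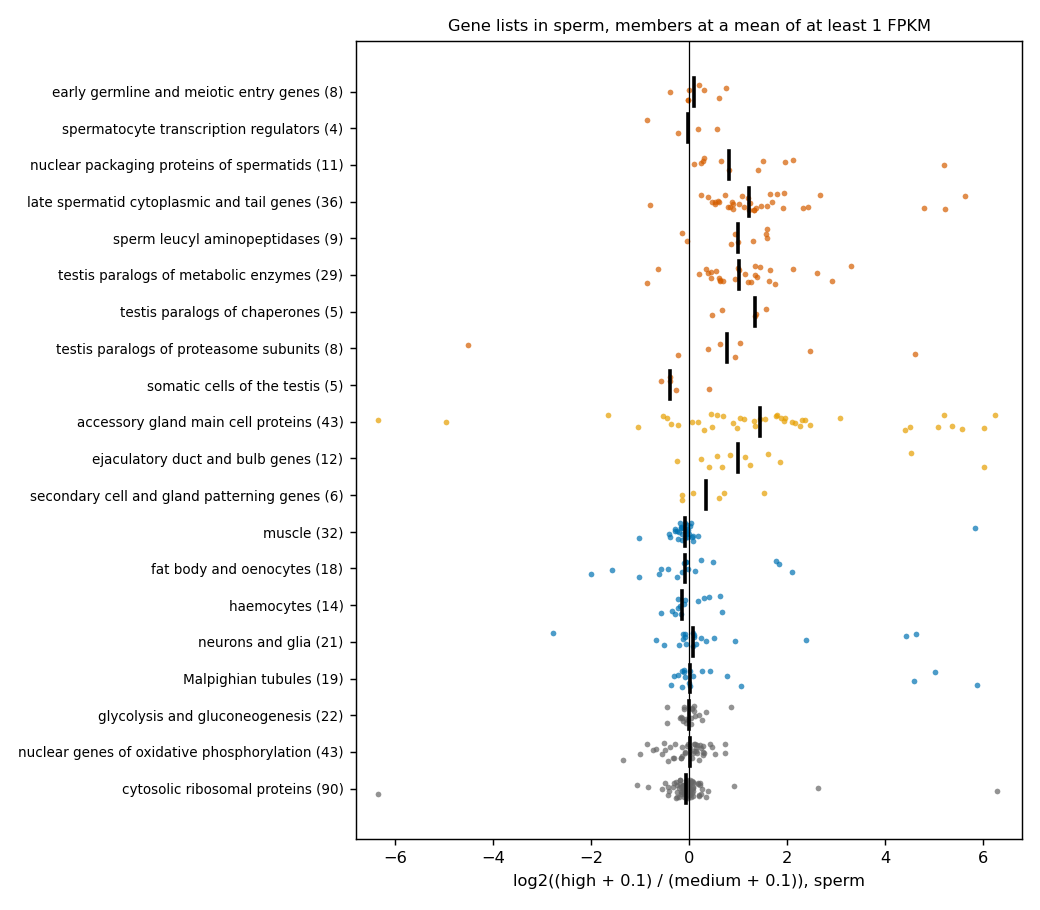
Log2 ratios of the members of 20 gene lists with a mean of at least 1 FPKM (points, number in brackets) and their medians (black bars). Testis lists are red, gland lists orange, somatic lists blue and metabolic lists grey. Medians are near 0 in early germline genes (0.09) and spermatocyte regulators (-0.02, but 1.12 with a minimum mean of 0.1 FPKM), above 0.5 in spermatid genes, most testis paralogs and the main gland lists, and near 0 again in muscle (-0.10) and haemocytes (-0.14).

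Many enzymes have a broadly expressed gene and a second gene used mainly in the testis, which gives a comparison within 1 pathway. In 42 pairs both genes reached a mean of 1 FPKM, and the testis paralog had the higher ratio in 38 of them. The median ratio was 0.97 for the paralogs and -0.11 for the 31 broadly expressed genes, some of which serve several pairs. Of the paralogs 21 were past 2-fold higher and 1 was past 2-fold lower, and of the broadly expressed genes 1 was past 2-fold. Over all genes 13.7% were 2-fold higher and 7.6% were 2-fold lower. In glycolysis the paralog was higher in 11 of 11 pairs. Aldolase shows it: Ald, the broad gene, had 183 and 208 FPKM, and CG5432, its testis paralog, had 8.03 and 27.2 FPKM. Hexokinase did the same, with Hex-A at 342 and 313 FPKM and Hex-t2 at 9.52 and 21.8 FPKM. Glycerol-3-phosphate dehydrogenase differed by the most among the glycolytic pairs, with Gpdh at 185 and 135 FPKM against 14.0 and 43.5 FPKM for CG43343.

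The same held for 7 of 7 pairs of the tricarboxylic acid cycle and for 5 of 5 pairs of chaperones. Of these 7 paralogs, CG5718 (0.238 and 1.96 FPKM) reached the mean through the high group alone. An 8th pair of the cycle was left out because CG10748 (0.947 and 0.606 FPKM) lay under the minimum. Its ratio of -0.57 was below that of its broad gene Mdh2 (58.6 and 58.8 FPKM). The mitochondrial chaperonin Hsp60 had 23.5 and 21.6 FPKM, and its testis copies Hsp60B and Hsp60D had 9.31 and 24.0 FPKM and 6.26 and 16.0 FPKM. For oxidative phosphorylation it held in 8 of 11 pairs. The exceptions were CG34172, a copy of the cytochrome oxidase subunit COX7A (16.4 and 10.5 FPKM), CG8102, a copy of a complex I subunit (5.74 and 3.09 FPKM), and CG12027, a copy of ATP synthase coupling factor 6 (1.16 and 1.49 FPKM). A second COX7A copy, CG18193, went the other way from CG34172, with 12.7 and 39.7 FPKM. Of the proteasome pairs 6 of 7 had the higher ratio in the paralog, at low values of at most 5.82 FPKM, and Prosbeta4R1 (2.20 FPKM and listed at 0) was the exception. Of the 6, Prosbeta2R1 (listed at 0 and 2.33 FPKM) and Rpt3R (0.748 and 1.52 FPKM) reached the mean through the high group alone. Among members at 5 FPKM or more the proteasome list kept 1 gene, Prosalpha6T, with 5.82 and 4.97 FPKM. Its own ratio was -0.22, above the -1.22 of its broad gene Pros35 (31.6 and 13.5 FPKM). The paralogs are less abundant than the broad genes, and reads could be split between near-identical copies. With at least 1 FPKM in both groups, the paralog was higher in 34 of 37 pairs.

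**Figure D4:**
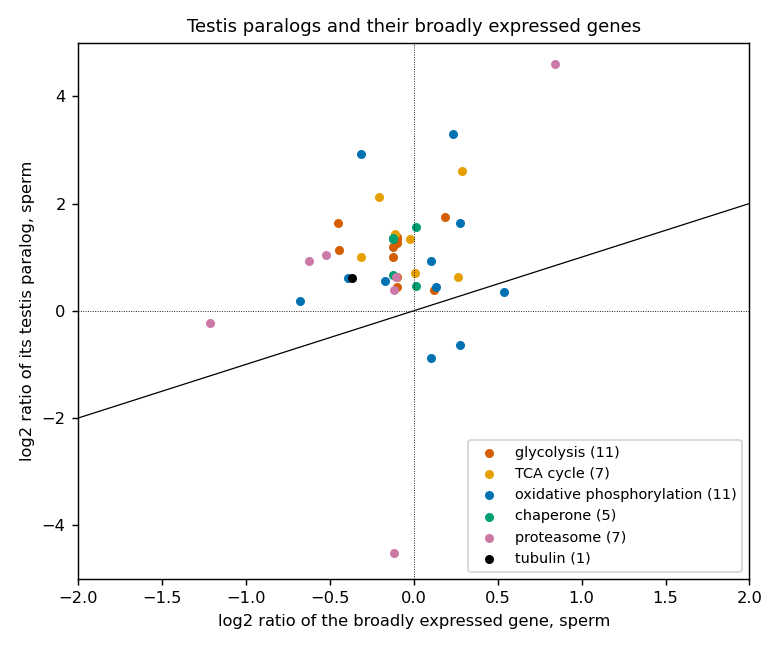
Log2 ratio in sperm of each testis paralog (y axis) against that of its broadly expressed gene (x axis) for 42 pairs, coloured by process. The solid line marks equal ratios: 38 points lie above it and 4 below.

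Accessory gland genes, which encode seminal proteins such as the sex peptide, had higher values in the high sugar group for most members. Of 73 found, 43 reached a mean of 1 FPKM, and 35 of these had ratios above 0. Past 2-fold there were 26 higher and 4 lower, a share of 60.5% higher beside 13.7% of all genes. Of the 26, 11 had under 1 FPKM in the medium group and so reached the mean through the high group alone. Over the 30 members at 1 FPKM in both groups, 15 were 2-fold higher and 2 were 2-fold lower, beside 751 of 8330 genes (9.02%) higher. The median was 1.45, and 1.00 over these 30 members. Of the other 13, 8 were listed at 0 in the medium group, 2 were listed at 0 in the high group and 3 had values between 0 and 1 FPKM in the medium group. The sex peptide gene Acp70A had 11.1 and 49.8 FPKM, ovulin, Acp26Aa, had 2.34 and 11.9 FPKM, and Acp36DE, needed for sperm storage, had 5.75 and 11.4 FPKM. Acp36DE shares its locus with another gene and had 12.7 FPKM in embryos, so its values are less certain. None of the 22 tested members was called in the authors' deposited table, and 4 had an unadjusted p under 0.05, all 4 higher. These were CG34034 (47.6 and 164 FPKM), Mst57Da (19.3 and 92.6 FPKM), the serpin gene Spn77Bb (33.5 and 62.4 FPKM) and CG17097 (6.94 and 20.3 FPKM). Mst57Db was also higher, at 58.9 and 128 FPKM. Not every gland gene followed. The most abundant member, CG42828, whose place on this list is uncertain, had 1082 and 840 FPKM, and Acp53Ea had 28.0 and 8.76 FPKM.

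Of 24 duct and bulb genes 12 reached a mean of 1 FPKM, and 11 of these had ratios above 0, with a median of 0.99 (0.75 over the 10 at 1 FPKM in both groups). Beside Dup99B, the antimicrobial peptide gene of the duct, Anp, had 72.9 and 173 FPKM, the esterase gene Est-6 had 67.6 and 99.6 FPKM, and the odorant-binding protein gene Obp51a had 128 and 152 FPKM. PebIII, a protein of the mating plug from the bulb, was the exception at 248 and 207 FPKM. Genes of the secondary cells and of gland patterning differed less, with a median of 0.34 over 6 members. The abundant ones had nearly equal values, with mfas at 323 and 289 FPKM and the homeotic gene Abd-B at 40.7 and 36.8 FPKM. Over members that share no locus with another gene this median was -0.04.

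Lists of somatic genes had medians near 0. For muscle, 32 of 37 genes reached a mean of 1 FPKM, with a median ratio of -0.10, 1 past 2-fold higher and 1 past 2-fold lower. The actin Act57B (926 and 943 FPKM), the myosin light chains Mlc2 (513 and 433 FPKM) and Mlc1 (429 and 483 FPKM) and the actin Act87E (506 and 439 FPKM) were the most abundant. Haemocyte genes had a median of -0.14 with none of 14 past 2-fold, neuron and glia genes one of 0.08 over 21 and photoreceptor genes one of -0.03 over 10. Malpighian tubule genes (0.00 over 19), cuticle genes (-0.08 over 8), tracheal genes (-0.01 over 4) and gut genes (-0.14 over 11) also had medians close to 0. Single members still lay past 2-fold. On the higher side these were 4 of 19 tubule genes (21.1%), 2 of 8 cuticle genes, 2 of 11 gut genes and 3 of 21 neuron and glia genes, beside 13.7% of all genes. On the lower side there was 1 gene each in the cuticle, gut, neuron and photoreceptor lists. With at least 1 FPKM in both groups, 1 of 16 tubule genes, 1 of 8 gut genes, 0 of 5 cuticle genes and 0 of 17 neuron and glia genes were 2-fold higher. The water channel Drip was the most abundant tubule gene at 1226 and 944 FPKM. A single egg chamber gene, grk, reached 1 FPKM, with 8.20 and 4.69 FPKM.

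Fat body genes went both ways. Their median was -0.08 over 18 genes, with 3 past 2-fold higher and 3 past 2-fold lower, beside 13.7% and 7.6% of all genes. Tsf1 fell, and the lipocalin NLaz (405 and 387 FPKM), the chitinase-like growth factor Idgf3 (232 and 171 FPKM) and the desaturase desat1 (217 and 182 FPKM) had values within 1.5-fold. At an unadjusted p under 0.05 in the authors' deposited table, 3.24% of all tested genes were higher and 0.713% were lower. Of the 16 tested fat body members, 2 had higher and 2 lower values at that p. They were Cyp4g1, an oenocyte enzyme of hydrocarbon synthesis (8.29 and 29.9 FPKM), the clotting factor gene fon (2.54 and 8.86 FPKM), Tsf1 and the juvenile hormone esterase gene Jhe (15.9 and 7.73 FPKM). No other iron gene was called. Of the other 11, 8 had ratios below 0 and 10 lay within 2-fold, with a median of -0.21. Fer3HCH, another ferritin gene, was the 1 past 2-fold, at 1.49 and 6.02 FPKM. The ferritin subunits Fer1HCH and Fer2LCH had 265 and 220 FPKM and 297 and 250 FPKM, and the second transferrin gene Tsf2 had 17.7 and 16.4 FPKM.

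Measured against muscle, whose FPKM summed to 6441 in the medium and 5938 in the high group, the germline and gland lists made up more in the high group. The late spermatid list summed to 11.4% of the muscle sum in the medium group and to 26.0% in the high group. For the leucyl aminopeptidases these shares were 4.97% and 13.6%, for nuclear packaging proteins 1.07% and 2.45%, and for duct and bulb genes 13.1% and 26.0%. Accessory gland genes came to 23.2% and 30.3%, or 6.36% and 16.2% without CG42828, whose place on that list is uncertain. Other somatic lists did not shift this way, with fat body genes at 24.4% and 19.4%, haemocyte genes at 5.86% and 5.62% and neuron and glia genes at 5.89% and 6.47%. The fat body sums were 1575 and 1154 FPKM, of which Tsf1 held 429 and 107 FPKM, so most of that fall came from Tsf1. The lists hold different numbers of genes, so these shares do not give the makeup of the samples.

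Immune genes were split. Of the antimicrobial peptide genes 9 of 21 reached a mean of 1 FPKM, with a median ratio of 1.24 but 0.03 over the 6 at 1 FPKM in both groups. Cecropin genes had the largest ratios: beside CecA2, the values of CecA1 were 1.36 and 251 FPKM, and CecB was listed at 0 and had 3.14 FPKM. For CecA1 the authors' deposited table gives p = 0.246 before adjustment. The other 2 of the 5 members past 2-fold higher were Anp, the duct peptide given above, and the diptericin gene DptB. DptB was listed at 0 in the medium group with 2.65 FPKM in the high group, and shares its locus with another gene. These 5 made up 55.6% of the 9, beside 13.7% of all genes, and 3 of them had under 1 FPKM in the medium group. Over the 6 at 1 FPKM in both groups, 2 were 2-fold higher and 1 was 2-fold lower. Below the minimum, Mtk (1.82 FPKM in the medium group), Dpt (1.74) and AttD (1.59) were listed at 0 in the high group. Def was listed at 0 in the medium group with 1.59 FPKM in the high group. The attacin AttC had 44.6 and 50.9 FPKM, and drosomycin, Drs, had 25.9 and 8.94 FPKM. Genes of immune recognition and response had a median of -0.08 over 28 members, and none of the 25 tested was called. The signalling factors Rel (48.8 and 44.9 FPKM) and Dif (23.2 and 24.6 FPKM) had nearly equal values.

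Metabolic and housekeeping genes of broad use had medians near 0. The median was 0.00 for 22 genes of glycolysis and gluconeogenesis, 0.02 for 43 nuclear genes of oxidative phosphorylation, -0.10 for 12 genes of the mitochondrial genome and -0.06 for 90 cytosolic ribosomal protein genes. The most abundant glycolytic gene, Gapdh2, had 367 and 324 FPKM, and ATPsyn-beta of the ATP synthase had 248 and 234 FPKM. Heat shock genes had a median of -0.35 over 20 members, and none of the 17 tested was called. The small heat shock genes Hsp26 (447 and 328 FPKM) and Hsp22 (306 and 229 FPKM) and the chaperone genes Hsp83 (442 and 392 FPKM) and Hsc70-4 (582 and 587 FPKM) were the most abundant. Mitochondrial ribosomal protein genes had a median of -0.27 over 73 members, 7 past 2-fold higher and 18 (24.7%) past 2-fold lower, beside 7.6% of all genes lower. Their median levels were 7.09 and 6.20 FPKM, and of protein-coding genes with a mean of 5 to 10 FPKM 6.15% were 2-fold lower. None of the 62 tested was called.

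The embryo table of the same study, which the sperm comparison does not use, gave a way to sort all protein-coding genes without a list. Its values were scaled separately, so they served only to sort genes. Genes absent from embryos had the higher ratios in sperm. Of 657 genes with under 0.1 FPKM in stage 17 embryos, 52.1% were 2-fold higher and 6.54% were 2-fold lower in sperm of high sugar males, with a median ratio of 1.04. Of 780 genes at 0.1 to 1 FPKM in embryos, 37.8% were 2-fold higher, with a median of 0.62. For 3208 genes at 1 to 10 FPKM the share was 10.8% and the median -0.04, and for 3845 genes at 10 FPKM or more it was 4.16% and -0.11. Among tested genes, the shares with an unadjusted p under 0.05 and a higher value in the authors' deposited table were 24.2%, 13.7%, 2.15% and 0.328% in the same order. Genes absent from embryos were also rarer in sperm, where values scatter more. With at least 1 FPKM in both sperm groups, 42.7% of the lowest class and 2.74% of the highest were 2-fold higher. Among genes with a mean of at least 10 FPKM in sperm the medians were 1.12 over 149 genes, 0.51 over 186, -0.06 over 612 and -0.12 over 2346. Without the genes of the testis and gland lists, the 587 remaining genes with under 0.1 FPKM in embryos had a median of 1.01.

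**Figure D5:**
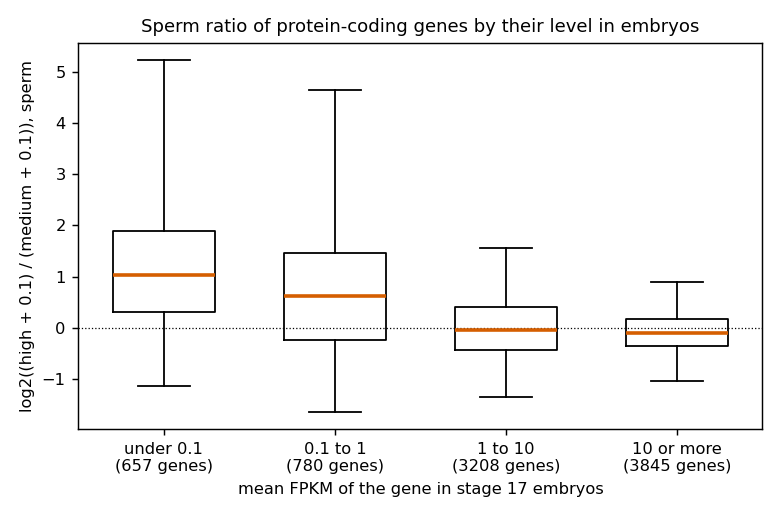
Log2 ratio in sperm of protein-coding genes with a mean of at least 1 FPKM in sperm, by their mean FPKM in stage 17 embryos. Boxes span the quartiles, red lines are medians and whiskers reach percentiles 5 and 95. The medians are 1.04, 0.62, -0.04 and -0.11 from the lowest to the highest embryo level.

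Even so, the abundant genes of this kind did not form 1 group. Of 40 genes with at least 50 FPKM in sperm and under 0.1 FPKM in embryos, 19 were 2-fold or more higher, 9 were higher by less and 12 had ratios at or below 0. Of all protein-coding genes, 4.88% at 50 to 100 FPKM and 4.21% at 100 FPKM or more were 2-fold higher. The largest ratio was that of CG42852, listed at 0 in the medium group with 139 FPKM in the high group. It reached the mean of 50 FPKM through the high group alone. Those with higher values included CG31226 (139 and 343 FPKM), CG17376 (106 and 238 FPKM) and CG31740 (99.6 and 230 FPKM). Those with ratios below 0 included CG5860 (441 and 350 FPKM), CG3690 (290 and 246 FPKM), CG31380 (260 and 194 FPKM) and CG7333 (178 and 147 FPKM). CG42521, at 1202 and 1536 FPKM, was among those higher by less than 2-fold. The genes named here by a CG number carry no role in the annotation used. The set of 40 was chosen by level alone, while these examples were picked after their values were seen. Tsf1 was 1 of the 12 genes at or below 0, and the ratios of the others lay between -0.42 and -0.04.

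Named genes with the largest ratios were mostly rare in 1 group. Among genes with a given name and at least 10 FPKM in the higher group, CecA2 and CecA1 led, followed by Mur18B, a mucin-related gene (0.0751 and 11.8 FPKM), the comet gene swif (0.200 and 11.1 FPKM), the splicing gene SmF (0.717 and 11.1 FPKM) and Acyp, an acylphosphatase gene (0.990 and 11.0 FPKM). The autophagy gene Atg8b (1.98 and 18.2 FPKM), the gland gene Acp53C14a (3.42 and 29.7 FPKM), the phosphatase gene Pp1-13C (1.46 and 10.3 FPKM) and the comet gene hubl (2.44 and 16.0 FPKM) came next. The lowest ratios were those of Dms, a gene of the neuropeptide myosuppressin (61.5 and 1.46 FPKM), the mitochondrial ribosomal genes mRpS24 (14.4 and 2.90 FPKM) and mRpL27 (21.8 and 4.70 FPKM), and Tsf1. After these came ksh (22.5 and 6.16 FPKM), LSm1 (10.6 and 2.92 FPKM), Rab40 (11.6 and 3.32 FPKM), CHMP2B (20.9 and 6.05 FPKM), Taf13 (12.8 and 3.94 FPKM) and GAPsec (10.9 and 3.33 FPKM). Of these 20 genes CecA2 and Tsf1 were called, and for Dms the unadjusted p in the authors' deposited table was 0.0683. Several of the 20 share their locus with another gene, so their values are less certain. These were swif, hubl, SmF, Pp1-13C, mRpS24, LSm1, CHMP2B, Taf13 and GAPsec, and swif and hubl have the same locus.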

How the data were processed

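Sperm RNA of medium and high sugar males was sequenced from 2 libraries per group. Reads were processed with TopHat2 2.0.8 on the BDGP5 build and with Cuffdiff 2.1.1, per the submitters' processing notes, while the annotation, options and scaling were not given in the sources used here. Per the file headers, the authors deposited 1 FPKM value per gene and group, a log2 fold change, a test statistic (a score), a p-value and an adjusted p-value (q-value). The sperm and embryo FPKM, p-values and adjusted p-values were used; the deposited log2 column and score were not. The depth per library is unknown, so no interval is given. The labels do not state whether a group's libraries are separate collections of flies, so the p-values may measure technical spread.

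From the deposited FPKM, log2((high + 0.1) / (medium + 0.1)) was computed for genes with a mean of at least 1 FPKM, with Python 3.11.15, numpy 2.4.6 and pandas 2.3.3. The computation was tested on simulated data. A gene is called where the authors' adjusted p lies below 0.05. No test was refitted and no list was tested. Each list is described by counts and its median beside those of all genes. The gene lists, their members and the comparison itself were chosen with earlier results of these data known, and some members and 1 paralog pair were moved or removed by function after values were seen. Named genes were every called gene, the 10 largest ratios on each side with a given name and a value of 10 FPKM or more in 1 group, and members among the 4 most abundant of their lists; others were chosen after their values were seen. Names were matched by identifier for 14278 of 15146 genes through a BDGP6 annotation, whose coordinates were not used. The start of a locus counts from 0 in the table, and 1 was added. Of the 9251 genes, 3858 share their locus with another gene, and named genes among them, such as S-Lap4, S-Lap2 and Obp51a, are not all marked where they are named. Of the per-sample value columns, 0 were unused.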

Additional observations from a re-analysis of the deposited data

How the results depend on the processing

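No paired analysis was possible because the files hold 1 value per group, and for the same reason no replicate could be left out and no test was refitted. The 21 rises and 1 fall in the authors' deposited table stayed within 1.5 times under the thresholds and levels tried, except that 2 genes fell at an adjusted p under 0.1. Counts past 2-fold depended on the minimum level: 1270 higher and 703 lower genes became 2153 and 1233 at a minimum mean of 0.1 FPKM, 2264 and 1289 with no minimum, 504 and 206 at 5 FPKM, 751 and 414 with at least 1 FPKM in both groups (added after seeing the data), 727 and 380 without genes sharing a locus, and 475 and 206 past 4-fold. With a pseudocount of 1 the lower count was 440. The median of late spermatid genes ran from 1.07 to 1.30 over the alternatives, that of the leucyl aminopeptidases from 0.93 to 1.16, of accessory gland genes from 1.00 to 1.77, and of genes under 0.1 FPKM in embryos from 0.85 to 1.12. A few medians moved by over 1.5 times: spermatocyte regulators to 1.12 and egg chamber genes to 1.74 at a minimum of 0.1 FPKM, proteasome paralogs to -0.22 at 5 FPKM (1 gene), antimicrobial peptides to 0.19 at 0.1 FPKM and to 0.0253 with at least 1 FPKM in both groups, and odorant-binding proteins to 1.00 without shared loci. The paralog count of 38 of 42 pairs became 24 of 25 at 5 FPKM and 24 of 28 without shared loci. Of 43 medians 20 changed sign under an alternative, nearly all of them close to 0, so no direction is read from those. Centring shifted the median of all genes by 0.08 and scaling to the total without the most abundant gene by -0.07.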

Other observations

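Large gene families that the report does not describe showed little common movement. Of 86 cytochrome P450 genes 56 reached a mean of 1 FPKM, with a median log2 ratio of -0.25, 8 past 2-fold higher and 7 past 2-fold lower; the abundant Cyp6d5 had 291 and 201 FPKM. Of 21 glutathione S-transferase genes 17 reached it, with a median of -0.03, and GstD1, a detoxification enzyme, was the most abundant at 3351 and 2946 FPKM. Odorant, gustatory and ionotropic receptor genes were rare, as 15 of 185 reached 1 FPKM and 133 were listed at 0 in both groups. The gustatory receptor genes Gr59f (20.3 and 13.2 FPKM) and Gr59e (11.9 and 15.8 FPKM) were the most abundant of these. Serpin genes had a median of 0.10 over 17 members. Of the importin alpha and Ran genes Pen rose, while Kap-alpha1 (17.4 and 14.0 FPKM) and Kap-alpha3 (53.9 and 39.4 FPKM) had lower values in the high sugar group and were not called.

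Genes of small RNAs scattered more than protein-coding genes. Over 112 genes named as small nucleolar, small nuclear, micro or transfer RNA, the ratios ran from -9.77 to 10.8 (percentiles 5 and 95), and 26 were listed at 0 in the medium and 15 in the high group. The mitochondrial transfer RNA gene mt:tRNA:Y was listed at 0 in the medium group and had 21479 FPKM in the high group, and its p before adjustment is 0.118 in the authors' deposited table. FPKM of such short genes divides few fragments by a very short length. By chromosome, 10.4% of the protein-coding genes on X were 2-fold higher, beside 15.7% on 2L, 14.6% on 2R, 12.9% on 3L, 13.9% on 3R and 13.5% of all protein-coding genes, and the 66 genes of chromosome 4 had a median of -0.21.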
